A study of Caenorhabditis elegans with 2 samples.

Results

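The autosomal regions whose summits fell in exons away from promoters are described here, from ChIP-seq (chromatin immunoprecipitation followed by sequencing) of tagged FOS-1 in Caenorhabditis elegans. A region was a member when its summit lay in an exon of a protein-coding gene on chromosomes I to V, and not from 1000 bp upstream to 200 bp downstream of any annotated 5′ end of a protein-coding transcript. Of the 3527 regions in the authors' pooled list, 2870 were autosomal and 419 were members. Their summits lay in coding exons in 260 cases, in 3′ untranslated regions (UTRs) in 144 and in 5′ UTRs in 11, and 4 lay in exons with no annotated reading frame or UTR (in K11H3.5, gpx-6, pqn-70 and tos-1). In 11 cases the summit lay in exons of 2 genes. The places were taken in the order coding exon, 3′ UTR and 5′ UTR, so a base that is coding in any transcript counted as coding.

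The study measured where an inserted eGFP-tagged fos-1 was found in the genome of whole L4 larvae, the last larval stage. Both samples were biological replicates of a single group, the strain OP304 with the genotype unc-119(ed3) III; wgIs304, sexes mixed, with fos-1 as the antibody label, and the same control was used for both. No untagged strain, other stage or treatment is compared here, so each result below sets places of the genome or genes side by side within these lists. In whole animals, binding in a few cells and weaker binding in many cannot be told apart. FOS-1 belongs to the Fos family of transcription factors, which in mammals pair with Jun proteins through a leucine zipper and bind the AP-1 site. In the worm, fos-1 is known for the invasion of the anchor cell through the basement membrane during vulval development. Factors of this kind are best known at promoters and enhancers, while exons encode the protein or, in UTRs, hold sequence that controls translation and the stability and end formation of the messenger RNA.

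The pooled list holds peaks and background, and most members were weak. The authors' signal of the members had a median of 18.8, with a range from 16.6 to 55.5, beside a median of 19.2 over all autosomal regions. The −log10 q-values of the members had a median of 0.103, beside 0.130 over all autosomal regions, so low values were common to the whole list. Of the members, 8 reached 2, and the share of all autosomal regions that did so was not computed. The thresholded set, which the authors cut by the irreproducible discovery rate (IDR, which asks whether a region keeps its rank between replicates), held 20 of the 419 members, or 4.77% (exact 95% interval 2.94 to 7.28). Over all autosomal regions that share was 6.72%, which lies inside the members' interval. The set is the 248 highest regions of the pooled list, so membership in it and signal are the same ranking. All intervals given here are exact 95% intervals of counts, shares, ratios or medians and cover counting error only, since neighbouring regions are not independent and read counts were not used. Regions are not replicates of a condition, so no p-value was computed.

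The AP-1 site was searched as TGACTCA or TGAGTCA, each the reverse complement of the other, within 100 bp of each summit. The members that carried it are printed to show where in the gene the match lay, except a member in pcaf-1, whose sequence is not printed. Capitals mark the match, letters run 5′ to 3′ on the strand of the host gene, and the sequence is that of the RefSeq genome assembly of build ce11. The matches lay at chrII:11150047-11150075 on the plus strand (arrd-6), chrIV:3875418-3875446 on the minus strand (F37C4.6), chrV:12638962-12638990 on the minus strand (gpa-8), chrIV:7027294-7027322 on the plus strand (adah-1), chrII:5428112-5428140 on the minus strand (F07F6.4) and chrV:2720159-2720187 on the minus strand (srt-27).
arrd-6: gcaatgagagaTGAGTCAatggacgagaa
F37C4.6: tcttgcgccagTGACTCAtaaaaacattt
gpa-8: acagattcaggTGAGTCAtatttttttct
adah-1: ctcgatttgggTGAGTCAgattttaaaat
F07F6.4: gatgatttcttTGACTCAtttgagacgca
srt-27: ttttccgaataTGACTCAcgaggtttgtc

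The sites differed in place although every summit was exonic. Those of arrd-6, F07F6.4 and srt-27 were in coding sequence, and that of F37C4.6 was in the 3′ UTR, 7 bp from the summit. The sites of gpa-8 and adah-1 lay in introns, within 3 bp of a 5′ splice site, where the letters of the motif overlap those of the splice signal. Of the members' 7 sites, 2 (28.6%) were that close to a 5′ splice site, beside 407 of 7531 autosomal sites (5.40%). With 7 sites, a single site moves that share greatly. The shares are also not on a like basis. The members' sites lie within 100 bp of an exonic summit by the rule, while the autosomal sites were not limited to the neighbourhood of exons. The share among autosomal sites near exons was not computed.

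The share of members with an AP-1 site was close to that of exons at large. Sites stood within 100 bp of 7 of 419 summits, or 1.67% (0.674 to 3.41), beside 2.96% of all autosomal regions. Windows of the same width centred on all exonic positions held the site in 1.71%, and windows centred 1000 bp to each side of the summits in 1.31% (11 of 838). By place the share was 2.31% in coding exons (0.851 to 4.95, background 1.80%) and 0.694% in 3′ UTRs (0.0176 to 3.81, background 0.933%). Promoter regions of the same list carried the site in 4.55% (3.43 to 5.89), an interval just above that of the members, which ends at 3.41.

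The members with an AP-1 site had signals from 16.6 to 32.9. The region in arrd-6, an arrestin domain protein, had a signal of 32.9 and was the only one of the 7 in the IDR set. It ranked 294 in the replicate 1 list and 693 in the replicate 2 list. The region of F37C4.6 had a signal of 27.7, ranked 103 in replicate 2 and had no region within 200 bp in replicate 1. The region of gpa-8, a G protein alpha subunit, had a signal of 26.3 and ranked 5111 and 585 in the replicates. The other 4 lay between 16.6 (srt-27, of a chemoreceptor family) and 18.7 (pcaf-1, a histone acetyltransferase), and none of these was among the 3527 highest regions of both replicates.

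Apart from T28F4.4, whose sequence is not printed, the 3 coding members of highest signal with no AP-1 site are given as the 30 bases around the summit, on the strand of the host gene, to show the sequence at the strongest coding regions. They lie at chrIII:835976-836005 (dos-3), chrV:12004618-12004647 (F57F5.3), both on the minus strand, and chrV:6098821-6098850 (smut-1) on the plus strand.
dos-3: ataatcgcgatcatgctaacaaatactatt
F57F5.3: actatctgttcaatgaacatatatttttca
smut-1: ttatgctcgaatgcgaggaaacgcttccca

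Density per base differed strongly between parts of the exon. Over the 18.2 Mb of autosomal exonic bases outside promoters, the members stood at 23.1 regions per Mb (20.9 to 25.4). Coding exons held 16.2 per Mb (14.3 to 18.3), the lowest of the 6 places drawn, and 3′ UTRs held 78.4 per Mb (66.1 to 92.3), a ratio of 4.84 (3.92 to 5.95). In the replicate 1 list alone this ratio was 2.82 (2.29 to 3.45), below that interval, and in the replicate 2 list alone 4.08. Introns away from promoters held 27.5 per Mb (25.4 to 29.8), intergenic bases 33.1 (30.6 to 35.8) and promoters 52.9 (49.96 to 56.0). The 3′ UTR interval thus lay above that of every place except the 5′ UTR, where 11 regions gave 49.2 per Mb with an interval from 24.6 to 88.0, and the other exons, where 4 regions gave 69.4 with one from 18.9 to 178.

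**Figure D1:**
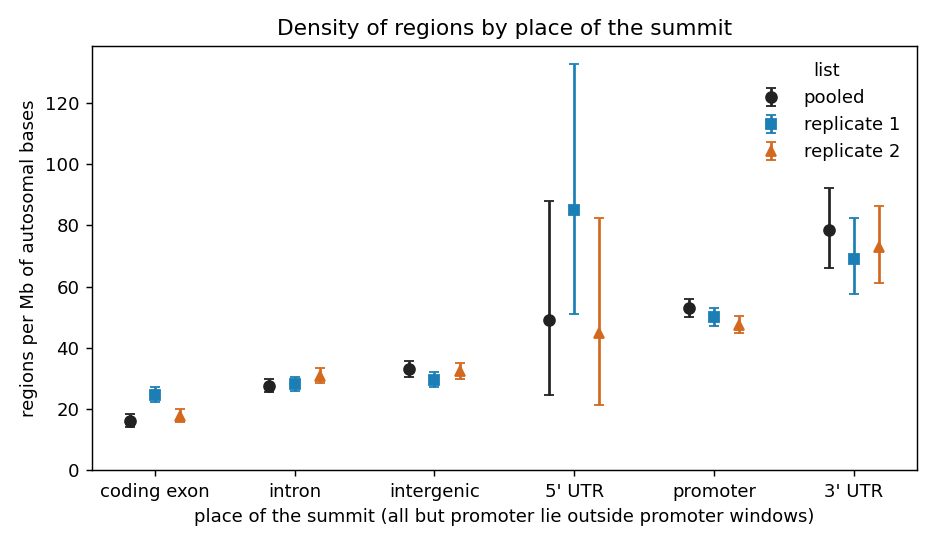
Regions per Mb of autosomal bases (y axis) for summits in each place (x axis), in the pooled list and in the 3527 highest regions of each replicate list, with exact 95% Poisson intervals. Coding exons are lowest in all 3 lists (16.2, 24.6 and 17.9 per Mb), and 3′ UTRs lie at 78.4, 69.1 and 73.0.

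Each replicate list alone gave the same order of coding exons, promoters and 3′ UTRs. In the 3527 highest regions of replicate 1, 3′ UTRs held 69.1 per Mb (57.6 to 82.3), coding exons 24.6 (22.2 to 27.1) and promoters 50.1. In replicate 2 the same values were 73.0 (61.1 to 86.4), 17.9 (15.9 to 20.1) and 47.6. The coding exons of replicate 1 therefore lay above those of replicate 2, with intervals that do not overlap, while the 3′ UTR values of the replicates lay within each other's intervals. The median GC share of the exonic regions was 37.7% in replicate 1 and 35.1% in replicate 2. It was higher in replicate 1 also in introns (35.1% beside 31.0%), intergenic regions (35.1% beside 32.2%) and promoters (35.9% beside 33.9%). The part of GC share in the difference between the coding densities was not tested.

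Among the strongest regions the contrast between coding exons and 3′ UTRs was larger. In the IDR set, 12 of 144 members in 3′ UTRs were included (8.33%, 4.38 to 14.1) and 6 of 260 in coding exons (2.31%, 0.851 to 4.95). Per Mb, 3′ UTRs held 6.53 regions of the set (3.38 to 11.4), promoters 4.90 (4.03 to 5.91) and coding exons 0.374 (0.137 to 0.814). The ratio of 3′ UTR to coding density in the set was 17.5 (6.07 to 56.7), above the interval of the ratio in the whole list. Down the ranks of the pooled list, the share of autosomal regions with a coding summit was 3.11% in ranks 1 to 248, 7.43% in ranks 249 to 1000, 8.68% in ranks 1001 to 2000 and 11.0% in ranks 2001 to 3527. The 3′ UTR share in the same ranks was 6.22%, 4.56%, 5.26% and 4.89%. Thus coding exons took a growing share towards the weak end of the list, and 3′ UTRs a nearly even one.

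**Figure D2:**
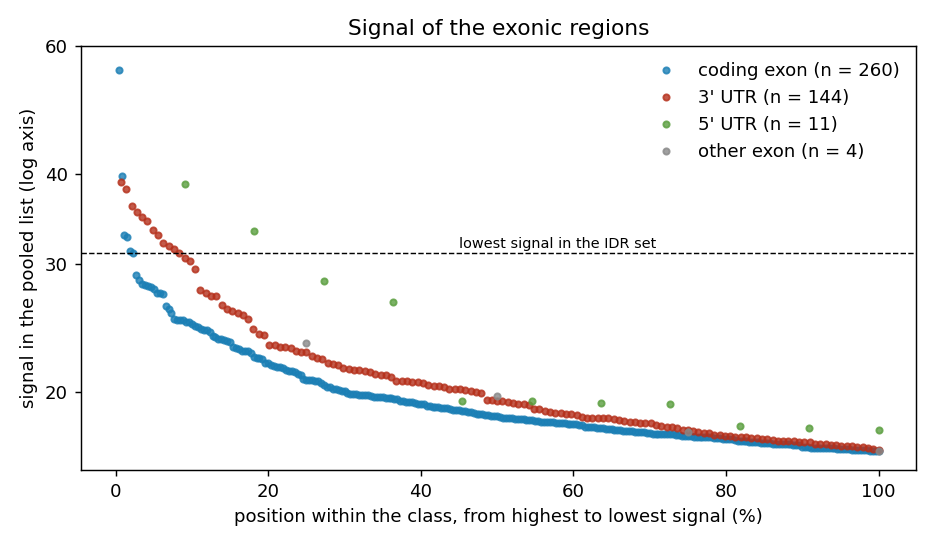
Authors' signal of each member in the pooled list (y axis, log) against its position within its class from highest to lowest (x axis, %), coloured by place of the summit, with a dashed line at the lowest signal of the IDR set. The curve of 3′ UTRs (median 19.5) runs above that of coding exons (median 18.5), and the highest point is dos-3 at 55.5.

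The median signal differed little between places. It was 18.5 in coding exons (18.2 to 19.0) and 19.5 in 3′ UTRs (18.7 to 20.4), beside 18.7 in introns, 19.0 in intergenic regions and 19.7 in promoters. At the rule's edge, the 19 members within 50 bp outside a promoter window had a median of 18.6 and none in the IDR set, and the 23 exonic summits within 50 bp inside one had a median of 19.0 and 1 in the set. In all, 241 exonic summits fell inside promoter windows and were left out.

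The coding members of the IDR set were 6, and 5 of them lay in the last exon within 300 bp of the end of the transcript. The region at chrIII:835819-836162 in exon 11 of 11 of dos-3, which encodes a protein with a DOS motif of the kind found in Notch ligands, had the highest signal of all members, 55.5. Its signal was 35.4 in replicate 1, where it ranked 33, and 35.2 in replicate 2, where it ranked 40. It ranked 43 in the pooled list, so it was high in both libraries, and its summit lay 240 bp from the transcript end. The next member had a signal of 39.7.

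The region in exon 4 of 4 of F57F5.3 (chrV:12004461-12004804) had a signal of 39.7, with 22.2 in replicate 1 and 19.1 in replicate 2. Its summit was 22 bp from the transcript end, its GC share of 26.1% was the lowest in the set, and it overlaps a further member in the same gene. Another member lay in the neighbouring cpr-9, a cathepsin B-like protease gene, with a signal of 29.0, outside the set, and ranks of 343 and 193. The region in exon 5 of 5 of fat-6, a delta-9 fatty acid desaturase, had a signal of 31.1, with 14.0 in replicate 1 and 18.1 in replicate 2. That of smut-1 (exon 5 of 5) had a signal of 31.3 and ranked 226 in replicate 1 and 3049 in replicate 2. The region of arrd-6 lay in exon 9 of 9, 108 bp from the end, with replicate signals of 17.5 and 15.01.

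The remaining coding region of the set, in exon 4 of 14 of T28F4.4, lay 6226 bp from the transcript end. Its signal was 32.8 in the pooled list, 8.90 in replicate 1 (rank 5700) and 32.3 in replicate 2 (rank 49). Its place in the set therefore went with a high value in replicate 2 alone.

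The 12 members of the set in 3′ UTRs belonged to genes of unrelated roles. The strongest was in dnj-1, a DnaJ co-chaperone, at chrIV:11304464-11304807, with a signal of 39.0 and replicate signals of 21.3 and 18.4. That of lgg-1, the Atg8 family protein of the autophagosome, had a signal of 38.1 and was uneven, at 12.6 (rank 1302) in replicate 1 and 29.1 (rank 72) in replicate 2. The region of tos-1, known as a reporter of splicing factor activity, had a signal of 35.4, with 20.6 and 18.0 in the replicates. These 3 show the range from even to uneven replicate support.

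Metabolic and signalling genes followed. The end of cts-1, the citrate synthase gene, overlaps that of best-18, a bestrophin channel gene, and their shared region had a signal of 34.9 with replicate signals of 14.7 and 18.4. The region of akt-1, a kinase of insulin signalling, had a signal of 33.5 and even replicate signals of 17.7 and 17.2. That of adh-1, an alcohol dehydrogenase, had a signal of 32.2 with 14.6 and 18.7. In all 3 genes the summit lay at most 142 bp from the transcript end.

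The others were in genes of membrane traffic and receptors or in genes with no role given here. The region of sec-61.A, a subunit of the Sec61 translocon, had a signal of 31.8 and ranked 5399 in replicate 1 and 407 in replicate 2. That of dyci-1, the dynein intermediate chain, had a signal of 31.5 with replicate signals of 13.5 and 14.2. The region of gcy-28, a receptor guanylyl cyclase, had a signal of 31.1 with 20.1 and 14.8. F27C1.2, W06H8.6 and F35G2.1 had signals of 36.2, 34.4 and 32.9.

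The 2 members of the set in 5′ UTRs were in C34C12.2, with a signal of 38.7 and ranks of 152 and 453 in the replicates, and in egl-30, the Gq alpha subunit, with a signal of 33.3 and ranks of 227 and 1705. The egl-30 region had the highest GC share of the 20, 56.8%. Just below the set came members in Y82E9BR.3 (30.6), suro-1 (30.3), mnk-1, a MAP kinase-interacting kinase (29.6), and cpr-9 (29.0). Next were Y39B6A.1 (28.6), F32D8.11 (28.4), mut-16, the scaffold of the foci where small RNAs are amplified (28.2), and T06E4.5 (28.1).

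Support by the replicates was limited for most members. A region within 200 bp was found for 357 of the 419 members in the replicate 1 list of 30000 regions and for 364 in the replicate 2 list of 29345. Since these lists reach far into background, membership among the 3527 highest regions of both was counted. It held for 60 members, or 14.3% (11.1 to 18.0), beside 16.0% of all autosomal regions. A further 115 members were that high in replicate 1 only and 130 in replicate 2 only, and 114 in neither.

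Replicate ranks of the members bore almost no relation to each other. Over the 303 members matched in both lists, Spearman's rho was 0.0144, beside 0.0151 over 2112 autosomal regions. All these points come from the same pair of libraries and share a control, so this is a description with no test. The pooled list was made from both replicates, and choosing regions by a combined value can by itself lower the correlation of its parts. The rho values therefore do not measure how well the replicates agree over the genome. The 20 members of the IDR set stood apart by their construction, with 18 of them among the highest 3527 in both lists and median ranks of 387 and 297, while of the other 399, the 337 matched in replicate 1 had a median rank of 4056 there and the 344 matched in replicate 2 one of 3655.5. The region in daf-16, the FOXO factor of insulin signalling, shows the uneven kind, with a pooled signal of 27.4, rank 24812 in replicate 1 and rank 143 in replicate 2. The region in mlp-1, a muscle LIM domain protein, was alike, with a pooled signal of 26.1 and ranks of 20834 and 235.

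**Figure D3:**
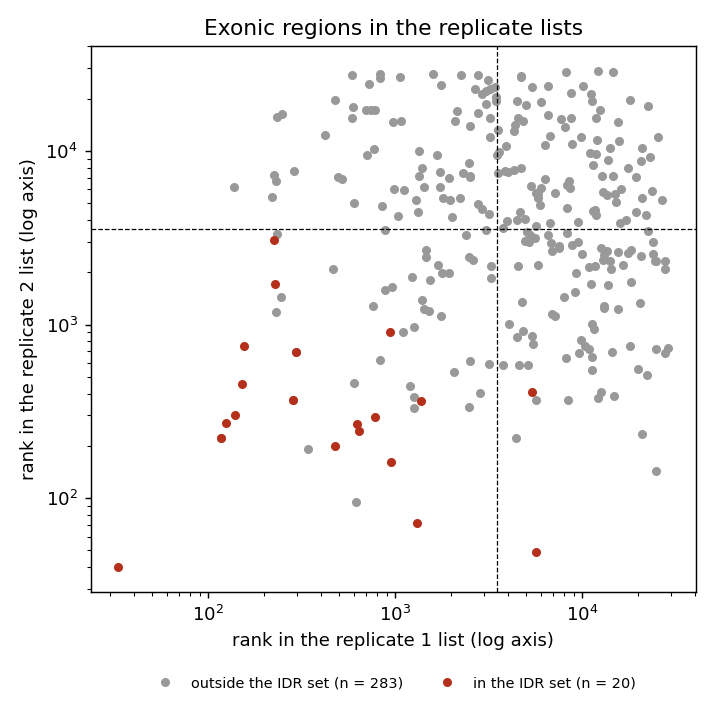
Rank of each of the 303 members found in both replicate lists, in replicate 1 (x axis, log) and replicate 2 (y axis, log), with dashed lines at 3527 and members of the IDR set in red. The red points lie mostly at the lower left, and the others show no trend (Spearman's rho over all 303 was 0.0144).

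Members lay nearer the ends of transcripts than exonic bases at large, also within coding exons but not within 3′ UTRs. Their summits were within 300 bp of the annotated end in 181 of 419 cases, or 43.2% (38.4 to 48.1), beside 18.8% of exonic bases. In coding exons alone it was 63 of 260, or 24.2% (19.2 to 29.9), beside 12.1% of coding bases. In 3′ UTRs, which are short, the share was 81.3% beside 79.7% of bases, and the median distance to the end was 101 bp beside 107. The excess over bases near the end was thus seen between places and within coding exons, not within 3′ UTRs.

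By distance from the end, exonic density was 65.3 regions per Mb in the last 100 bp (52.5 to 80.1), 52.3 from 100 to 200 bp, 34.4 from 200 to 300 bp and 22.7 from 300 to 600 bp. Beyond 2000 bp it was 15.05 (12.1 to 18.5). Coding exons went from 37.0 per Mb in the last 100 bp (22.3 to 57.8) to 13.9 beyond 2000 bp (11.0 to 17.3). In the replicate lists alone, coding density in the last 100 bp and beyond 2000 bp was 35.0 and 21.5 per Mb in replicate 1 and 33.1 and 16.1 in replicate 2. The intervals were 20.8 to 55.4 and 17.9 to 25.6 in replicate 1, and 19.3 to 53.0 and 13.04 to 19.7 in replicate 2. Within each replicate list these intervals overlap, and the difference between the lists was not tested. The share of coding summits within 300 bp of the end was 17.0% in replicate 1 (13.4 to 21.1) and 21.6% in replicate 2 (17.0 to 26.8), each above the 12.1% of coding bases.

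**Figure D4:**
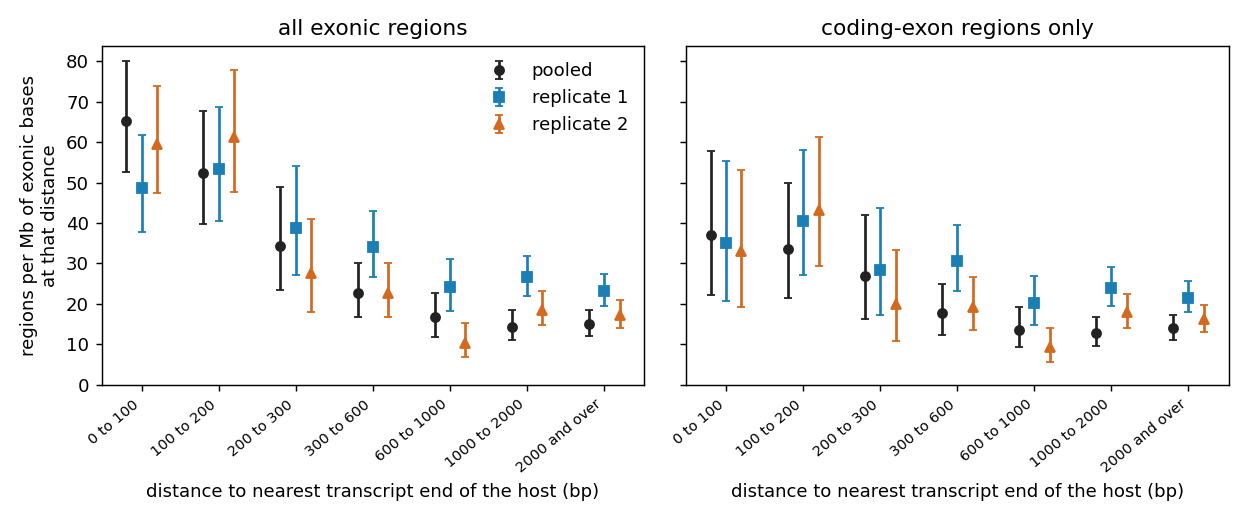
Regions per Mb of exonic bases (y axis) by distance of the summit from the nearest annotated transcript end of the host (x axis, bp), for all exonic regions (left) and coding regions (right), in the pooled list and in each replicate list, with exact 95% Poisson intervals. In the pooled list exonic density falls from 65.3 per Mb in the last 100 bp to 15.05 beyond 2000 bp, and coding density from 37.0 to 13.9.

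The genes on the far side of these ends more often faced the host. For 110 of 144 members in 3′ UTRs, the next gene downstream was convergent, its own end pointing towards the host, and for 34 it was in tandem. The convergent share was 76.4% (68.6 to 83.1), beside 62.3% of all autosomal 3′ UTR bases. At such ends the 3′ UTRs of neighbouring genes can overlap, and the lists carry no strand, so the gene to which a summit belongs cannot be told apart there.

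Base composition and position along the chromosome differed less. The median GC share over 345 bp was 35.9% at the members beside 38.3% over exonic bases. It was 37.8% beside 38.8% in coding exons and 33.6% beside 33.6% in 3′ UTRs. The middle segment of the autosomes, cut into 3 segments of equal length, held 198 members, or 47.3% (42.4 to 52.2), beside 40.2% of exonic bases. An excess there was not particular to exons, since it held 43.8% of all autosomal regions beside 33.3% of bases. The values were 37.8% beside 26.5% in introns, 41.0% beside 30.4% in intergenic regions and 47.3% beside 37.3% in promoters. Density ranged from 19.9 per Mb on chromosome II (70 members) to 24.6 on chromosome IV (83), with 84 on I, 73 on III and 109 on V. Exons of 1000 bp or more held 65 members (15.5%, 12.2 to 19.3) beside 11.5% of bases, and 386 members (92.1%) were exonic in every transcript at that position. Within 172 bp of 18 summits lay an annotated RNA gene, or 4.30% (2.57 to 6.70), beside 11.1% of all autosomal regions. Those regions include other places of the genome, and the share of exonic bases that close to an RNA gene was not computed. The RNA gene was annotated only as noncoding RNA for 9, a piRNA gene for 5, and a tRNA, snRNA or snoRNA gene for 2 each, and some summits had more than 1 kind.

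The members lay in 408 genes, or 2.59% of the 15769 autosomal protein-coding genes with exonic bases outside promoters. Of these, 387 held a single member, 20 held 2, and din-1, a corepressor partner of the nuclear receptor DAF-12, held 3. The din-1 regions had signals of 26.6 in a 5′ UTR and of 19.9 and 18.1 in coding exons. The first ranked 989 and 5989 in the replicates, the next was missing from replicate 1 and ranked 2751 in replicate 2, and the last ranked 2302 and 7413. None of the 3 was among the highest 3527 regions of both lists, and none was in the IDR set. Of the 419 members, 8 overlap another member, so some pairs in a gene, such as those of F57F5.3 and arrd-6, match the same replicate regions.

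Hosts had more exonic bases outside promoter windows than genes at large, with a median of 1456 beside 860. When genes were ordered by these bases and cut into 4 bins of nearly equal size, the bin with the fewest bases had 39 hosts (0.989%), and the next bins had 63, 97 and 209 (5.31%). Per Mb of these bases the order turned, with 36.9 hosts in the bin with the fewest bases and 20.4 in the bin with the most. The share of genes that were hosts thus moved with the number of exonic bases, and the part of that number in the shares given next was not tested except where stated.

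Genes that hosted a member more often had a promoter region in the same list. A summit in the host's own promoter window was found for 79 of 408 hosts, or 19.4% (15.6 to 23.5), beside 7.50% of all 15769 genes. It was 17.6% for genes with a coding member and 23.0% for those with a 3′ UTR member. A single annotated 5′ end was found in 217 of 408 hosts and in 11257 of 15769 genes. Among genes with 1 annotated 5′ end the shares were 12.9% for hosts (28 genes, 8.75 to 18.1) and 5.55% for all (625 genes). In the replicate lists alone, the shares were 16.2% beside 7.03% in replicate 1 and 14.0% beside 6.64% in replicate 2. With 1 annotated 5′ end, replicate 1 gave 7.80% (4.95 to 11.6) beside 5.14%, where the interval holds the background, and replicate 2 gave 10.2% (6.65 to 14.8) beside 4.98%.

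Hosts were counted in 21 gene lists. Genes in at least 1 list were hosts in 58 of 2166 cases (2.68%), and genes in none in 350 of 13603 (2.57%). Hosts fell in 20 of the 21 lists, and the 12 histone genes had none. Against 2.59% of all genes, the interval of 1 list lay above (muscle) and those of 2 lists lay below (ubiquitin and proteasome, and C-type lectins), while the interval of each of the others held that value. Some of 21 such intervals can miss the value by counting error alone, and no correction was made for reading all 21.

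Among signalling genes, 4 of 47 were hosts (8.51%, 2.37 to 20.4). Beside akt-1 and daf-16 these were let-23, the EGF receptor (24.4, coding), and daf-2, the insulin receptor (16.8). Neuronal genes gave 6 of 96 (6.25%, 2.33 to 13.1), among them the glutamate receptor genes glr-2 (23.5) and nmr-1 (18.4), the syntaxin gene unc-64 (22.5) and rab-3, a small GTPase of synaptic vesicles (18.0). None of these but akt-1 was in the IDR set. The signalling genes held 0.554% of the exonic bases and 0.955% of the members, and the neuronal genes 0.574% and 1.43%. These differences rest on few members and were not tested.

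Muscle genes gave 4 of 34 (11.8%, 3.30 to 27.5), the highest share of any list. They were unc-68, the ryanodine receptor (19.6), sca-1, the calcium pump of the sarcoplasmic reticulum (17.7), dys-1, dystrophin, and unc-70, beta spectrin (17.1). The genes of this list held 1.20% of the exonic bases and 0.955% of the members, so per base they were not above the rest.

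Genes of chaperones gave 3 of 52, dnj-1, the chaperonin subunit cct-7 (26.4) and dnj-29, a DnaJ domain protein (16.8). Intestinal genes gave 3 of 45, namely fat-6, cpr-9 and asp-1, an aspartyl protease (20.8). Transcription factors of the bZIP family, to which FOS-1 belongs, gave 2 of 24, the CREB-like crh-2 (24.0, in a 3′ UTR) and zip-2 (20.7). Chromatin genes gave 5 of 105, among them swsn-9 of the SWI/SNF complex (26.1), the histone deacetylase hda-2 (19.7), the SWI/SNF subunit let-526 (17.7 and 17.4) and the chromodomain helicase chd-7 (17.5). Genes of RNA processing and small RNAs gave 4 of 102, namely mut-16, the SR protein rsp-8 (22.7), the Dicer-related helicase drh-3 (18.5) and the nucleotidyltransferase mut-2 (18.1).

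Basement membrane and matrix receptor genes, the tissue barrier in the anchor cell's path, gave 1 of 16, pat-2, an alpha integrin (17.8). Cuticle collagens gave 5 of 143, led by col-106 (23.0), col-140 (18.7), col-122 (16.7) and col-90 (16.7), and ribosomal protein genes 1 of 45, rpl-3 (18.7). Nuclear hormone receptors gave 4 of 245 (1.63%), from nhr-63 (19.5), nhr-161 (18.7) and nhr-193 (18.4) to nhr-64 (17.1). Other transcription factors gave 4 of 154, the zinc finger gene ztf-17 (20.1), unc-62, the Meis homologue, with a pair of members in a 5′ UTR (19.4 and 17.9), the homeobox gene ceh-38 (18.2) and hlh-12 (17.3), a basic helix-loop-helix gene. The lowest shares among lists with a host were those of C-type lectins, with 1 of 232 (clec-140, 0.431%, 0.0109 to 2.38), and of ubiquitin and proteasome genes, with 2 of 462 (0.433%, 0.0525 to 1.55), both F-box genes (fbxa-126 and fbxa-139). The C-type lectin genes held 1.09% of the exonic bases and 0.239% of the members, and the ubiquitin and proteasome genes 2.32% and 0.477%. Each of the lists left over gave 1 or 2 hosts. They were nars-1, a tRNA synthetase (17.0, 1 of 64 translation genes), the filamin fln-1 (18.7) and the beta tubulin tbb-2 (18.4, 2 of 43 cytoskeletal genes), and the ATP synthase subunit atp-1 (20.3) and cox-5B of cytochrome c oxidase (16.8, 2 of 33 respiratory genes). Germline genes gave spe-4 (21.6) and pos-1 (19.5), 2 of 105, and molting genes che-14 (20.6) and mlt-4 (18.2), 2 of 111.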

How the data were processed

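The authors' peak lists on build ce11 were used: a list for each replicate, the pooled list and the IDR set. Per the deposited file lists, these were called from the replicate alignments with the same control. For the aligner, the peak caller and the thresholds, nothing was given in the sources used here. The signal of a region is the authors' deposited value, whose scale is not given, and was used to rank and describe regions within a list. The −log10 q-value and the summit offset are also deposited values. All pooled regions are 344 bp wide with the summit at the centre. Read depth is unknown.

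Summits were placed with Ensembl release 115 in the order promoter, coding exon, 3′ UTR, 5′ UTR, other exon, intron and intergenic, and the same order was applied to every autosomal base to give densities per Mb. Every annotated transcript 5′ end set a promoter window. Replicate regions matched when summits lay within 200 bp. Exact Poisson and Clopper-Pearson 95% intervals were computed with scipy 1.17.1 under Python 3.11.15, beside pandas 2.3.3 and numpy 2.4.6. Tested on simulated data, 282 of 282 synthetic summits were placed correctly. Members and gene lists were chosen with earlier results of these data known. Named genes were the hosts of the 10 coding and 10 UTR regions of highest signal, of every member of the IDR set, of the AP-1 members (at most 10), of 3 or more members, and up to 4 hosts per gene list, and any other was chosen after its values were seen. Alternatives changed the promoter window, the 5′ ends, the exon definition, the list and the distances. Lists on build ce10 were not used here.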

Additional observations from a re-analysis of the deposited data

How the results depend on the processing

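Of 58 alternative values, 45 stayed close to the main value (a count within 1.5 times of it, any other value inside its interval), 13 moved and 0 changed direction. The number of members ranged from 300 to 513 over promoter windows, 5′ ends and exon definitions, and was 8 at a −log10 q-value of at least 2. The number of all autosomal regions at that q-value was not computed. With a single replicate list, the coding share was 66.6% to 72.6% (62.1% in the pooled list), the share within 300 bp of the transcript end 29.8% to 40.8% (43.2%), the ratio of 3′ UTR to coding density 2.82 to 4.08 (4.84), and the share of hosts with a promoter region 14.0% to 16.2% (19.4%). Without replicate 2, the ratio was 2.82 and the share near the end 29.8%. In the IDR set alone the ratio was 17.5. The IDR share of the members was 1.19% when the set was cut to its higher-signal part and 10.3% when the 500 highest regions were taken (4.77%). The shares of all autosomal regions at these other cuts were not computed, so the members cannot be set against them there. The share in both replicates was 9.07% at a matching distance of 100 bp, 28.6% when more regions of each replicate list were taken and 9.07% when fewer were (14.3%), and with these choices all autosomal regions moved too, to 28.5% and 9.27%. The share near the transcript end was 29.6% at 150 bp and 54.4% at 600 bp. The window, list-length and distance choices move these values by construction, and the cause of the differences between replicate lists was not tested. The ratio, the promoter regions of hosts and the gene lists were run under alternatives added after seeing the data. No paired analysis was possible because both samples belong to a single group. Depth could not be used to set the precision, because read counts were not used here.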
